A study of Mus musculus with 16 samples.

Results

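The 9 genes described here encode the parts of the endothelin and nitric oxide systems and the flow-response genes that a vessel wall uses to set its tone and to keep blood fluid. They are Edn1, Ece1, Ednra, Ednrb, Nos3, Klf2, Klf4, Thbd and Plat, taken by symbol from the 31053 genes of the deposited feature lists. Single-cell RNA sequencing (10x Genomics, 3′ chemistry) was run on glomerulus-enriched kidney suspensions from 16 mice, 1 mouse per library, in 8 groups of 2 mice. DN mice were BTBR ob/ob (homozygous for the leptin-deficient ob allele, a model of type 2 diabetes with obesity) and control mice were BTBR +/+, each as females and males of 6 and 12 weeks. All mice of both genotypes also carried the reporter allele tm4(ACTB-tdTomato,-EGFP)Luo of Gt(ROSA)26Sor and a Cre transgene active in podocytes. The ob allele acts in the whole body from birth, so genotype, obesity and hyperglycemia cannot be told apart. Proximal tubules were depleted on a Percoll gradient and the papilla was removed. The tissue was digested with collagenase at 37 °C and then with a protease on ice.

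Endothelin-1, made from the Edn1 precursor by the endothelin-converting enzyme encoded by Ece1, is a potent vasoconstrictor peptide made by endothelial cells. It constricts smooth muscle through the receptor Ednra, while endothelial Ednrb clears the peptide and releases nitric oxide, and Ednrb of the collecting duct lowers sodium reabsorption. Nos3 makes endothelial nitric oxide. The transcription factors Klf2 and Klf4 are induced in endothelium by laminar flow through the MEK5-ERK5-MEF2 route, and their known targets include Nos3 and Thbd. Thbd (thrombomodulin) turns thrombin into an anticoagulant enzyme, and Plat (tissue plasminogen activator) starts the breakdown of fibrin. Klf2 and Klf4 are also induced by the handling of tissue, so the level of a list of dissociation genes is given beside them.

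The genes lie on 6 mouse chromosomes (GRCm38). Edn1 is at chr13:42301476-42307990 on the plus strand, Ece1 at chr4:137862237-137965229 on the plus strand, Ednra at chr8:77663031-77724464 on the minus strand and Ednrb at chr14:103814625-103844402 on the minus strand. Nos3 is at chr5:24364810-24384474 and Plat at chr8:22757727-22782844, both on the plus strand, and Thbd is at chr2:148404466-148408188 on the minus strand. Klf2 is at chr8:72319033-72321656 on the plus strand and Klf4 at chr4:55527143-55532466 on the minus strand. Genes on the opposite strand overlap Edn1 (Gm47118), Ece1 (Gm13012), Ednra (4933431K23Rik) and Nos3 (Gm15587 and Atg9b). Whether the counting used strand is not given in the sources used here, so reads of these pairs are uncertain.

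The promoter stretches of the 2 flow-induced factors and of the ligand are shown because patterns for MEF2 and for a shear-stress element are read from sequence. They are the 250 bases before the RefSeq start (GRCm38.p6), 5′ to 3′ in the direction of the gene. Capitals mark matches to the MEF2 pattern (CTA and TAG with any 4 bases between them, which reads alike on both strands), GAGACC (a shear-stress element) and CACCC (a KLF pattern), each searched on both strands. The last bases of the Klf2 stretch already lie in the Ensembl gene, and the whole Ednrb stretch (chr14:103843702-103843951, minus strand, not printed) lies within the Ensembl gene of Ednrb.
Klf2, chr8:72318812-72319061, plus strand: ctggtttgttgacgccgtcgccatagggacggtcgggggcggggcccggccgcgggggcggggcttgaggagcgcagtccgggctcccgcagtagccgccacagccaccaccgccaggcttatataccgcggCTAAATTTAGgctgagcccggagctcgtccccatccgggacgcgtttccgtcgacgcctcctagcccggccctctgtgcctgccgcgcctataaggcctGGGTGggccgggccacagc
Klf4, chr4:55532476-55532725, minus strand: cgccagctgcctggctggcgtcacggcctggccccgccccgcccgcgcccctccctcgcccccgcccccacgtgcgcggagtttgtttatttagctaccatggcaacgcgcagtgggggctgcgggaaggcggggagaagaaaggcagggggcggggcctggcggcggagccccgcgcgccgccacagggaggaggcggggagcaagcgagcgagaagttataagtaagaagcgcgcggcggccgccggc
Edn1, chr13:42301226-42301475, plus strand: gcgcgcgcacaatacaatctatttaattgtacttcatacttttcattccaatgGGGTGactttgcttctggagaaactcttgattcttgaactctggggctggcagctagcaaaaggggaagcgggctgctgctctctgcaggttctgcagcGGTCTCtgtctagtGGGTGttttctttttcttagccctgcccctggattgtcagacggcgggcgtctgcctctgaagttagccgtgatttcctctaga
Klf2 held 1 MEF2 match, 118 to 109 bases before the start. Among 32851 RefSeq promoters of this length, 3.20% held that pattern. Edn1 held 1 match to the shear-stress element, read as GGTCTC 98 to 93 bases before the start, which 13.7% of the promoters held. Positions of matches were sought in the promoters of 4 of the genes (Klf2, Klf4, Edn1 and Ednrb). Among them the KLF pattern occurred in Klf2 (19 to 15 bases before the start), at 2 places in Edn1 (197 to 193 and 84 to 80) and at 2 places in the Ednrb promoter (95 to 91 and 76 to 72), and in 52.0% of all promoters. None of the 3 patterns was in the Klf4 stretch. A match is a run of letters and not a measured site. Of the 9 genes, 6 had an entry in the promoter table, and positions of matches were not worked out for Ece1 and Ednra.

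The libraries held 1267078476 UMIs (unique molecules counted) in 116439 barcodes, of which 86845 cells were kept and 67394 fell into 18 classes. The replicate 1 libraries of the 4 female groups used another barcode list and were shallow, with 10510855 to 21728793 UMIs against 83410397 to 125551519 in the other 12. Libraries of the same barcode list shared 7 to 55 cell barcodes. Classes were named by marker genes with the 9 genes left out of the clustering, and "-like" marks a name given by markers. Labelled glomerular types were present: the podocyte-like class (1166 cells) had a podocyte marker sum of 19988 CPM (UMIs of the genes scaled to 1000000 UMIs of the class). Glomerular EC-like cells (6111) had a general endothelial marker sum of 5926 CPM and a glomerular EC marker sum of 10198 CPM. Mesangial-like cells (4074) had a mesangial marker sum of 13288 CPM. Peritubular and venous EC-like cells had a glomerular EC marker sum of 4299 CPM beside 4110 CPM for their own markers. A class with a level in the text is a sum of at least 10 cells per library. Values per library are given below in the order female 1, female 2, male 1, male 2. In CPM of a class, fewer transcripts per cell and a larger output of other genes cannot be told apart.

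Each gene had its own order of classes, and within endothelium the orders differed. Neighbours in each order were compared with a two-sided exact paired sign-flip permutation test on log2(CPM + 1), adjusted by the Benjamini-Hochberg method over 153 neighbouring pairs, of which 39 differed. UMIs of different genes are not compared, because 3′ counts are not scaled for length or capture.

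**Figure D1:**
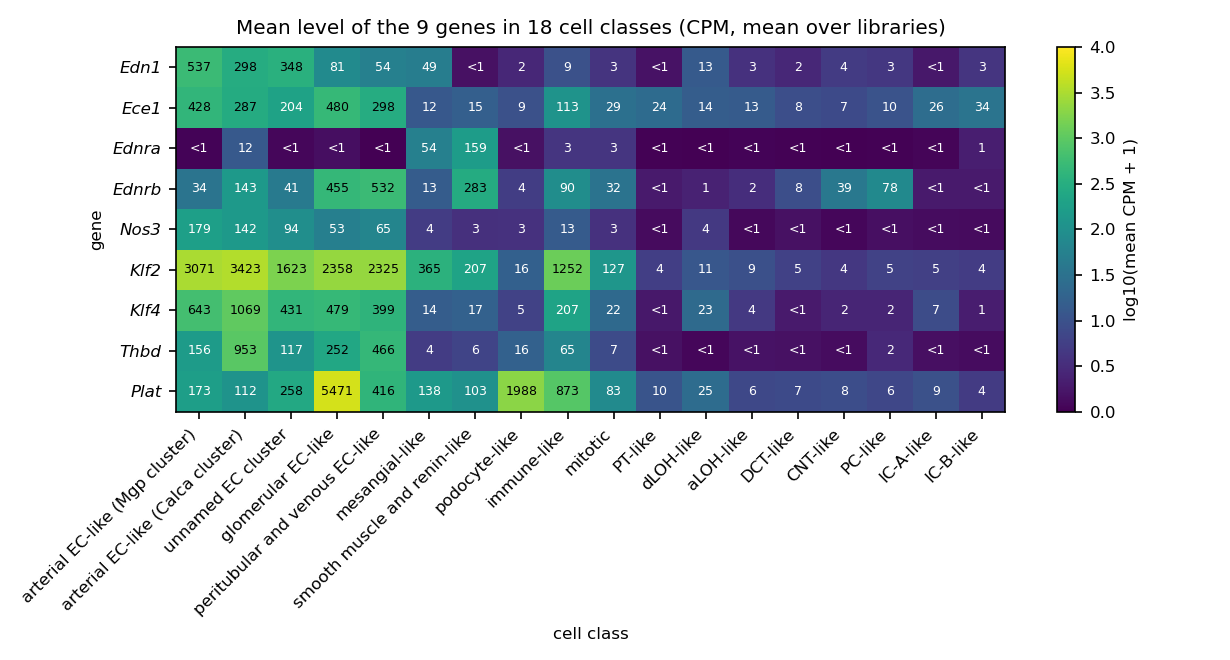
Heat map of the mean level of the 9 genes (rows) in 18 cell classes (columns), as log10 of the mean CPM over libraries plus 1. Within a row, Plat is highest in glomerular EC-like cells (5471 CPM), Thbd, Klf2 and Klf4 in the Calca cluster of arterial EC-like cells (953, 3423 and 1069 CPM), and Ednra in smooth muscle and renin-like cells (159 CPM).

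Edn1, the ligand, was highest in the arterial EC-like cluster led by Fbln2 and Mgp (537 ± 212 CPM, SD, n = 14 libraries). The unnamed endothelial cluster led by Slc14a1 and Igfbp3 followed with 348 ± 147 CPM, then the arterial EC-like cluster led by Sox17, Thbs2 and Calca with 298 ± 112 CPM. These 3 did not differ between neighbours (adjusted p = 0.0884 and 0.411, exact permutation). Glomerular EC-like cells were lower at 81.4 ± 37.5 CPM (adjusted p = 0.00187, exact permutation; lower in 14 of 14 libraries). Mesangial-like cells held 49.0 ± 16.3 CPM of Edn1, above dLOH-like cells (descending limb of the loop of Henle) at 12.5 CPM (adjusted p = 0.00187, exact permutation). Their endothelial marker sum was 890 CPM, and its part in their levels of Edn1 and of the other endothelial genes was not tested. In smooth muscle and renin-like cells the mean was 0.529 CPM.

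Ece1, the converting enzyme, was highest in glomerular EC-like (480 ± 157 CPM, n = 16) and Mgp-cluster arterial cells (428 CPM), which did not differ (adjusted p = 0.151, exact permutation). Peritubular and venous EC-like cells were below the latter (298 CPM, adjusted p = 0.00340, exact permutation, 13 of 13 libraries). The proximal tubule (PT)-like class held 24.2 CPM of Ece1 but, with 17620 cells, gave 15.7% of its UMIs.

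The 2 receptors had different orders of classes, and both were seen in smooth muscle and renin-like cells. Ednra was found almost wholly in contractile classes: smooth muscle and renin-like cells (159 ± 48.8 CPM, n = 16) gave 59.5% of its 3710 UMIs and mesangial-like cells (53.6 ± 18.6 CPM) 32.8%. These classes differed (adjusted p = 0.00133, exact permutation). Glomerular EC-like cells held 0.401 CPM of Ednra. A UMI of Ednra was seen in 60.4% of 1794 smooth muscle and renin-like cells (median 6260 UMIs) and in 0.0568% of 17620 PT-like cells (median 8269 UMIs). Ednrb was highest in peritubular and venous EC-like (532 ± 180 CPM, n = 13), glomerular EC-like (455 ± 296 CPM, n = 16) and smooth muscle and renin-like cells (283 ± 101 CPM, n = 16), which did not differ between neighbours (adjusted p = 0.216 and 0.110, exact permutation). Calca-cluster arterial cells were lower (143 CPM, adjusted p = 0.00549, exact permutation). Principal cells (PC-like, the sodium-reabsorbing cells of the collecting duct) held 78.2 ± 23.6 CPM and gave 24.1% of the Ednrb UMIs. The IC-A-like and IC-B-like classes (intercalated cells of the same duct) held 0.960 and 0.926 CPM. Mgp-cluster arterial cells, the highest in Edn1, held 33.8 CPM of Ednrb.

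Nos3 was highest in the Mgp (179 ± 65.4 CPM, n = 14) and Calca (142 CPM) arterial clusters, which did not differ (adjusted p = 0.109, exact permutation). The unnamed endothelial cluster (94.5 CPM) was below the Calca cluster (adjusted p = 0.00549, exact permutation). Glomerular EC-like cells held 52.5 ± 15.4 CPM (n = 16) and every non-endothelial class but the immune-like one had a mean of 4.16 CPM or less. The immune-like class (13.2 CPM of Nos3) had an endothelial marker sum of 1065 CPM. Its levels of Nos3, and of Klf2 and Plat below, are to be read beside that value. The part of endothelial RNA in them was not tested.

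Klf2 was high in all endothelial classes, from 3423 ± 917 CPM in the Calca cluster through 2358 CPM in glomerular EC-like cells to 1623 CPM in the unnamed cluster. The first 4 classes in its order did not differ between neighbours, and the unnamed cluster lay below peritubular and venous cells (adjusted p = 0.0217, exact permutation). Immune-like cells held 1252 CPM of Klf2, below the unnamed cluster (adjusted p = 0.0217, exact permutation), and mesangial-like cells 365 ± 216 CPM. Klf4 was higher in the Calca cluster (1069 ± 174 CPM) than in the Mgp cluster (643 CPM, adjusted p = 0.00889, exact permutation, 12 of 13 libraries). Glomerular EC-like cells held 479 ± 108 CPM of Klf4.

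For Thbd the Calca cluster held 953 ± 191 CPM, peritubular and venous cells 466.2 CPM (adjusted p = 0.00534), glomerular EC-like cells 252 ± 106 CPM (adjusted p = 0.0164) and Mgp-cluster cells 156 CPM (adjusted p = 0.0275), each below the class before it by the exact permutation test. Plat was highest elsewhere. Glomerular EC-like cells held 5471 CPM and gave 81.6% of its 188722 UMIs. Podocyte-like cells followed with 1988 ± 409 CPM (adjusted p = 0.00133, exact permutation, 15 of 15 libraries). Immune-like cells were next with 873 CPM (adjusted p = 0.00534), above peritubular and venous cells with 416 CPM (adjusted p = 0.00889, exact permutation). The Calca cluster held 112 CPM. The endothelial marker sum of podocyte-like cells was 12.7 CPM.

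Glomerular EC-like cells were made of a large cluster led by Plpp1 and Ehd3 (4999 cells) and a small one led by Stmn2, Hey1 and Dll4 (1094 cells). Levels of the 9 genes in them are a description, since clusters are not replicates. Taken alone at clustering resolution 2.0, the small cluster stayed unnamed. Its marker score was 2.49 for glomerular EC, and arterial EC came close at 1.66. Edn1 was 42.4 ± 21.2 CPM in the large cluster (n = 16, 846 UMIs) and 261 ± 126 CPM in the small one (n = 13, 1526 UMIs). Beside the large cluster, peritubular and venous EC-like cells held 54.2 CPM and mesangial-like cells 49.0 CPM of Edn1. Ednrb ran the other way with 510 ± 342 and 139.7 ± 90.6 CPM, and so did Thbd (278 and 118 CPM). Plat was 5167 CPM in the large and 7214 CPM in the small cluster.

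The genes most alike each member in their 18 class means, among 12828 genes, are given by Pearson r of log2(CPM + 1) as a description over classes that share libraries. Nos3 was most like Jag2 (r = 0.99), Crispld1 and Jam2, and it was itself second for Klf4 (r = 0.97) after Rasgrp3. Ece1 was most like Gch1 (r = 0.97), which makes the cofactor of nitric oxide synthase, then Tal1 and B3gnt3. Thbd was most like Adgrl4, Palmd and Fam117b, Klf2 like Arhgap31, Lrrc8c and Fxyd5, and Klf4 also like Git2. Ednra was most like Tusc5, Mrvi1 and Dgkb, Ednrb like Kitl (r = 0.91), Rab40c and Gjc1, Edn1 like Men1, Nuak1 and Mkl2, and Plat like Pxdn, Coro2b and Ikbkb.

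DN and control mice were compared at each age to ask which members differed with the diabetic genotype. edgeR's quasi-likelihood test was run on class sums over all genes, with Benjamini-Hochberg adjustment and a threshold of 0.05. At 12 weeks 1 of 102 member-class pairs passed in the fit without a replicate block, higher in DN (17 had an unadjusted p under 0.05, DESeq2 called 1), where 0.296% of all gene-class pairs passed. At 6 weeks 0 of 110 passed (11 had an unadjusted p under 0.05, DESeq2 called 0), against 0.0671% of all. Deviations of mice of the same sex, age and replicate number correlated, in checks that do not establish a pairing (processing section). In the fit with this pair as a block 8 of 109 passed at 12 weeks, 5 higher and 3 lower, against 2.63% of all. At 6 weeks 6 of 117 passed, 3 higher and 3 lower, against 1.16%. For the member-class pairs called, both fits are given below. Pair directions and overlaps of groups are given as values. How often all genes show the same was not counted, and groups this small can show it by chance. Calls under 1 other setting, for pairs not described below, were Ednrb in IC-A-like cells at 12 weeks with clustering resolution 2.0 (-2.08, adjusted p = 0.00559) and, with the block in the larger barcode list, Klf2 in smooth muscle and renin-like cells at 6 weeks (0.77, adjusted p = 0.0372) and Thbd in mesangial-like cells at 12 weeks (5.26, adjusted p = 0.0483, edgeR).

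Of the member-class pairs, Thbd in podocyte-like cells was called in both fits at 12 weeks. No control library held more than 4 UMIs of Thbd, under the filter's count of 10 scaled to the depth of the class. Thbd thus entered these tests through DN libraries alone, and its p-values are to be read with that limit. Its levels in control mice of 12 weeks were 0, 1.66, 1.69 and 1.14 CPM and in DN mice 0, 70.7, 10.2 and 61.6 CPM. The other 3 DN libraries lay above every control, though the 10.2 CPM of male 1 was 4 UMIs in 40 cells. The DN female 1 library, with 10 podocyte-like cells and 35470 UMIs, had none, which allows up to 84.6 CPM (3 counts, counting error only). Control female 1, also at 0, allows up to 9.87 CPM. The log2 difference was 4.72 ± 0.68 (SE, adjusted p = 0.00177, edgeR; with the block 4.49 ± 0.58, adjusted p = 1.5e-07), where 0.384% of the genes tested in the class passed without the block and 2.05% with it. At 6 weeks control mice had 0, 4.45, 5.22 and 2.62 CPM and DN mice 39.3 (female 2), 9.62 and 35.9 CPM (male 1 and 2), with too few cells in DN female 1. That difference was 2.81 ± 0.70 (adjusted p = 0.147, edgeR), called with the block (2.72 ± 0.58, adjusted p = 0.00268), as did 2.17% of the genes of the class. With both genotypes and ages pooled, a UMI of Thbd was seen in 5.23% of 1166 podocyte-like cells (95% Wilson interval 4.09 to 6.66%, median 7177 UMIs). In PT-like cells it was 0.403% (median 8269 UMIs). The endothelial marker sum of the class was 0 to 40.5 CPM over the libraries, with means of 22.9 CPM in control and 9.52 CPM in DN mice at 12 weeks. The dissociation list summed to 1785 to 2562 CPM in control and 1099.5 to 7847 CPM in DN podocyte-like cells at 12 weeks. At 6 weeks it summed to 1762 to 2897 CPM in control and 3158 to 6358 CPM in DN mice, with no overlap. Its part in the Thbd level was not tested.

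**Figure D2:**
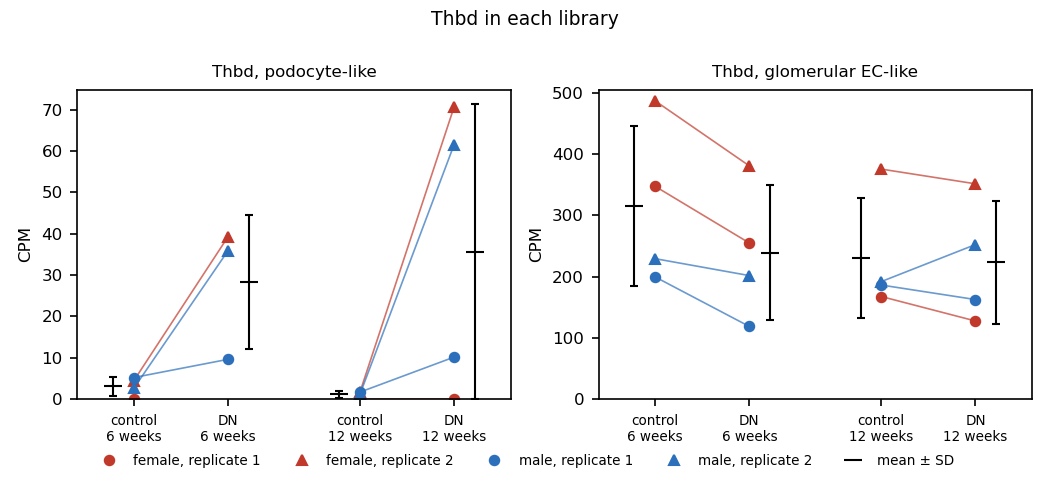
Thbd in CPM (linear axis from 0) by library in podocyte-like and glomerular EC-like cells. Points are mice (red female, blue male, circle replicate 1, triangle replicate 2), lines join mice of the same sex and number, and black bars give the mean ± SD. In podocyte-like cells the controls stay between 0 and 5.22 CPM while DN mice reach 70.7 CPM.

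Thbd in glomerular EC-like cells was lower in DN mice at 6 weeks. Control values were 347, 487, 199 and 229 CPM and DN values 255, 381, 119 and 202 CPM, so the groups overlapped while each DN mouse was below its pair. The difference was -0.43 ± 0.27 (adjusted p = 1, edgeR), and -0.46 ± 0.11 with the block (adjusted p = 0.0336). It was not called with the block without male pair 1 (-0.35, adjusted p = 0.239) or female pair 2 of that age (adjusted p = 0.0613), or without female pair 1 of 12 weeks (adjusted p = 0.0538, edgeR). At 12 weeks the values were 167, 375, 186 and 192 CPM in control and 127.5, 351, 162 and 252 CPM in DN mice.

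Ednrb was called lower in some classes and higher in others. In glomerular EC-like cells 8 of 8 DN mice were below their controls. At 6 weeks control mice had 528, 1387, 420 and 366 CPM and DN mice 365, 701, 301 and 265 CPM. At 12 weeks control mice had 249, 631, 350 and 638 CPM and DN mice 107, 373, 244 and 355 CPM. The groups overlapped at both ages, and each DN mouse was below the control mouse of its pair. With the block the log2 differences of Ednrb were -0.64 ± 0.11 at 6 weeks (adjusted p = 0.00214) and -0.81 ± 0.12 at 12 weeks (adjusted p = 0.000255, edgeR). Of all genes tested in these cells, 1.36% passed with the block at 6 weeks and 3% at 12 weeks. Both were called without any 1 pair, with an adjusted p of at most 0.0254 and 0.00534. Without the block the differences were -0.67 ± 0.36 and -0.82 ± 0.37 and did not pass (adjusted p = 1 at both ages, edgeR). At 12 weeks the dissociation list of these cells summed to 2998 to 3716 CPM in control and 3824 to 6878 CPM in DN mice, and the endothelial markers to 4523 to 5916 and 5951 to 7885 CPM, both without overlap. Their part in the Ednrb level was not tested. Within the large cluster alone, Ednrb at 12 weeks was 268, 542, 414 and 716 CPM in control and 126, 395, 304 and 389 CPM in DN mice, again lower in each pair. Within the small cluster at 6 weeks, it was 249, 337, 245 and 120 CPM in control and 101, 155, 102 and 59.1 CPM in DN mice.

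In smooth muscle and renin-like cells Ednrb was higher in DN at 12 weeks. Control mice had 129, 203, 211 and 216 CPM and DN mice 227, 468, 371 and 362 CPM, with no overlap between the groups. The log2 difference was 0.98 ± 0.26 without the block (adjusted p = 0.151, edgeR) and 0.99 ± 0.14 with it (adjusted p = 1.9e-05), and the blocked call held without any 1 pair (adjusted p at most 0.00282). With the block 3.41% of the genes of the class passed. In the 12 libraries of the larger barcode list it passed without the block too (1.00, adjusted p = 0.00986, edgeR). At 6 weeks control mice had 199, 330, 192 and 288 CPM and DN mice 186, 360, 349 and 441 CPM (0.49 ± 0.13, adjusted p = 0.0700, edgeR with the block), which passed with the block in the 12 libraries of the larger barcode list (0.55, adjusted p = 0.0467, edgeR). The class holds both smooth muscle and renin cells, and the sum of its markers was 33217 to 45147 CPM in control and 35996 to 77441 CPM in DN mice of 12 weeks. The part of its make-up in the Ednrb level was not tested. Ednra in the same cells did not pass: at 12 weeks it was 45.5, 225.5, 157.5 and 178 CPM in control and 92.0, 165, 164 and 189.5 CPM in DN mice (0.02 ± 0.28, adjusted p = 0.999, edgeR).

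In PC-like cells Ednrb was lower in DN at 12 weeks. Control mice had 69.7, 112, 95.4 and 94.7 CPM and DN mice 51.9, 64.5, 50.6 and 61.2 CPM, all DN values below all controls. The difference was -0.63 ± 0.20 without the block (adjusted p = 0.276, edgeR) and -0.64 ± 0.14 with it (adjusted p = 0.00894), where 7.13% of the genes of the class passed. It missed the threshold with the block when female pair 2 or male pair 1 was left out (adjusted p = 0.0553 and 0.0779, edgeR). At 6 weeks, the values overlapped (46.0 to 109.6 CPM in control, 58.1 to 119.6 CPM in DN mice).

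In mesangial-like cells, where 3.38% of all genes passed with the block at 6 weeks and 11% at 12 weeks, Ednrb was low. At 6 weeks control mice had 3.21, 6.29, 1.08 and 9.59 CPM and DN mice 3.05, 118, 7.27 and 18.8 CPM. The control values were 1, 6, 1 and 4 UMIs, and that of DN female 1 was 1 UMI. The difference was 2.95 ± 0.84 without the block (adjusted p = 0.222, edgeR). With the block it was 3.18 ± 0.56 (adjusted p = 0.00302, edgeR) and fell to 1.41 (adjusted p = 0.394) without female pair 2, which holds the value of 118 CPM. At 12 weeks the values were 6.88, 4.78, 2.76 and 1.73 CPM in control and 0, 7.73, 15.7 and 9.41 CPM in DN mice (1.64 ± 0.51, adjusted p = 0.0457, edgeR with the block; 1.55 ± 0.81, adjusted p = 0.542, without it). This was not called without male pair 1 (1.02, adjusted p = 0.497) or male pair 2 (1.46, adjusted p = 0.169, edgeR). The control values of 12 weeks were 2, 7, 5 and 2 UMIs, and the 0 of DN female 1 allows up to 6.73 CPM. Smooth muscle and renin markers moved with Ednrb: their sum in mesangial-like cells had means of 449 and 296 CPM in control mice of 6 and 12 weeks and 1857 and 1064 CPM in DN mice, highest at 4221 CPM among the DN libraries of 6 weeks. Their part in the Ednrb level was not tested.

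**Figure D3:**
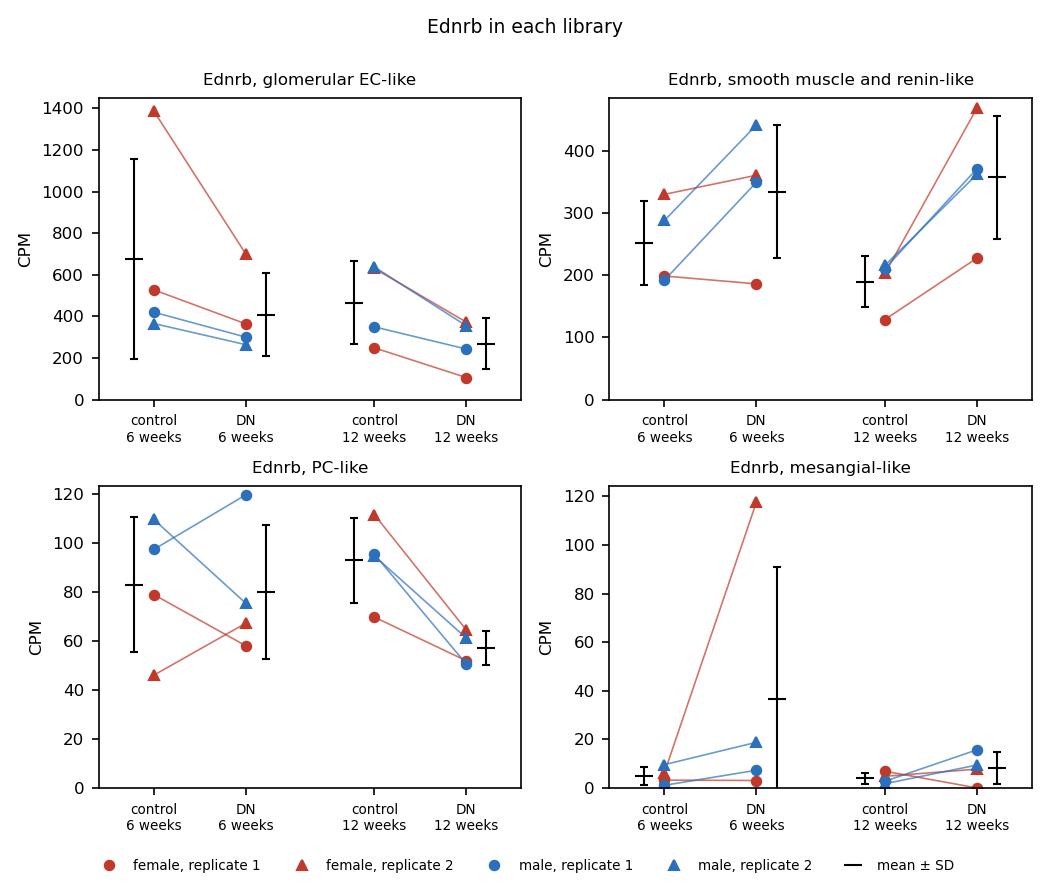
Ednrb in CPM (linear axes from 0, a scale for each panel) by library in glomerular EC-like, smooth muscle and renin-like, PC-like and mesangial-like cells. Points are mice (red female, blue male, circle replicate 1, triangle replicate 2), lines join mice of the same sex and number, and black bars give the mean ± SD. The lines fall in all 8 glomerular pairs and rise in all 4 smooth muscle and renin pairs at 12 weeks, from 129 to 216 CPM up to 227 to 468 CPM.

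Edn1 was called higher in DN glomerular EC-like cells at 12 weeks in the blocked fit, with 63.6, 25.03, 91.7 and 78.6 CPM in control and 155, 100, 133 and 106 CPM in DN mice, all DN values above all controls. The difference was 0.86 ± 0.31 without the block (adjusted p = 0.811, edgeR) and 0.80 ± 0.21 with it (adjusted p = 0.0409). Leaving out any 1 of the 4 pairs of that age ended the blocked call (0.63 to 1.07, adjusted p = 0.0632 to 0.339, edgeR). The dissociation list in these cells at 12 weeks summed to 2998 to 3716 CPM in control and 3824 to 6878 CPM in DN mice, which did not overlap either, and its part in the Edn1 level was not tested. Within the large cluster of these cells the 12-week values were 23.1, 24.9, 29.4 and 56.5 CPM in control and 67.0, 52.5, 41.0 and 90.4 CPM in DN mice. At 6 weeks, Edn1 was 25.6, 38.2, 74.4 and 129 CPM in control and 55.3, 58.8, 88.3 and 81.0 CPM in DN mice, which overlapped.

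The arterial clusters did not pass in either fit. In the Mgp cluster at 12 weeks Edn1 was 525, 345 and 326 CPM in control mice (female 1, male 1, male 2) and 911, 776 and 733 CPM in DN mice (female 1, female 2, male 1). The difference did not pass, at 0.92 ± 0.33 (adjusted p = 0.999, edgeR) and with the block 1.01 ± 0.24 (adjusted p = 0.0778, edgeR). These groups did not overlap, and how many other genes of the cluster separated in this way was not counted. In that cluster at 12 weeks the dissociation list averaged 4523 CPM in control and 6820 CPM in DN mice, and smooth muscle and renin markers 150 and 420 CPM, and their part in the Edn1 level was not tested. In the Calca cluster it was 241, 318 and 367 CPM in control and 401, 533 and 382 CPM in DN mice (0.57 ± 0.16 with the block, adjusted p = 0.0982, edgeR), and the DN value was the greater in 7 of 7 pairs over both ages. In the unnamed cluster at 12 weeks, Edn1 was 503, 294 and 768 CPM in control mice and 422, 367, 399 and 189 CPM in DN mice. Without the filter on low counts Edn1 was called higher in DN dLOH-like cells at both ages (1.88, adjusted p = 0.0122, and 1.83, adjusted p = 0.0290, edgeR).

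**Figure D4:**
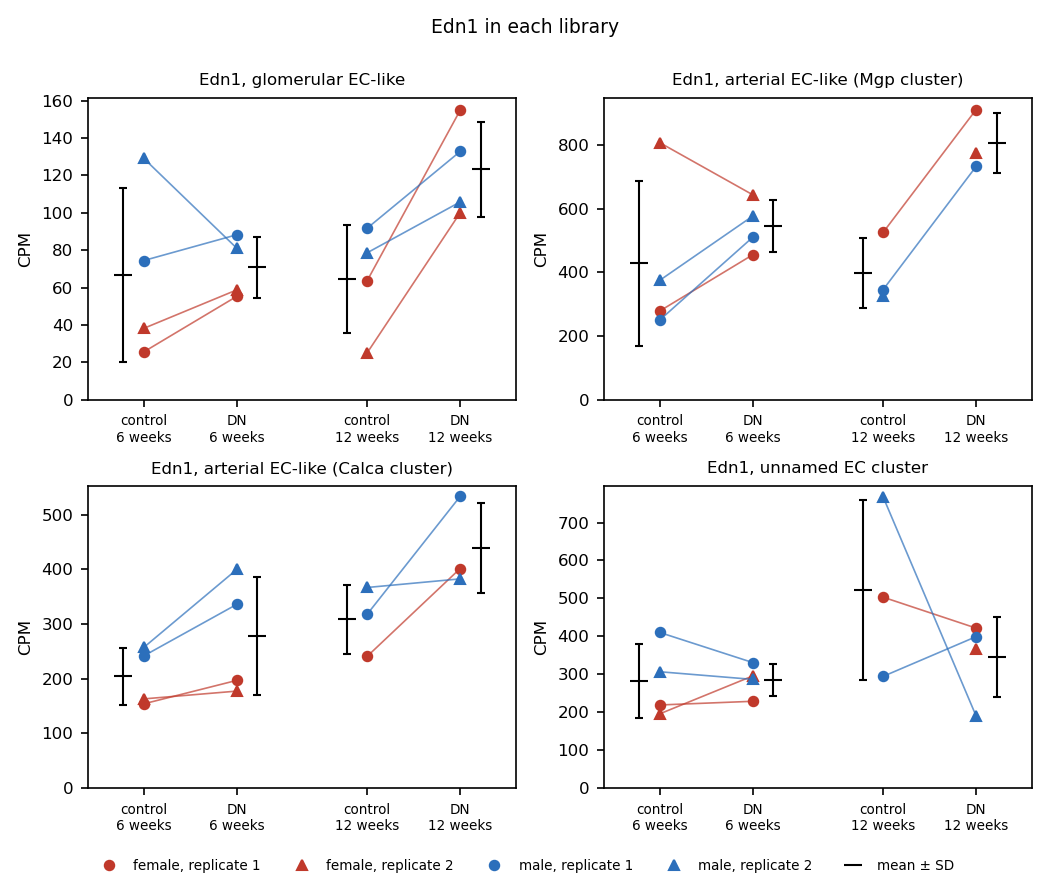
Edn1 in CPM (linear axes from 0, a scale for each panel) by library in glomerular EC-like cells, both arterial EC-like clusters and the unnamed endothelial cluster. Points are mice (red female, blue male, circle replicate 1, triangle replicate 2), lines join mice of the same sex and number, and black bars give the mean ± SD. At 12 weeks the DN points lie above the controls in glomerular EC-like cells (100 to 155 against 25.03 to 91.7 CPM) and in both arterial clusters, and not in the unnamed cluster.

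Ece1 passed in no class at either age in the fits with and without the block. In glomerular EC-like cells the DN value was the greater of the pair in 8 of 8 pairs, with 249, 591, 402 and 629 CPM in control and 293, 603, 477 and 716 CPM in DN mice at 12 weeks (0.17 ± 0.09 with the block, adjusted p = 0.491, edgeR). In PT-like cells 7 of 8 DN mice were below their controls (-0.78 with the block at 12 weeks, adjusted p = 0.0570, and -0.81 without the filter on low counts, adjusted p = 0.0404, edgeR).

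Nos3 passed in no class either. In glomerular EC-like cells at 6 weeks it was 36.6, 87.8, 53.5 and 75.1 CPM in control and 26.9, 69.0, 39.5 and 60.3 CPM in DN mice, each below its pair (-0.40 ± 0.12 with the block, adjusted p = 0.119, edgeR). At 12 weeks it was 48.0, 50.1, 54.0 and 55.5 CPM in control and 35.1, 48.7, 54.1 and 46.1 CPM in DN mice (-0.14 ± 0.15 with the block, adjusted p = 0.918, edgeR). In the Mgp arterial cluster 6 of 6 DN mice were below their controls over both ages, without a call.

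Klf2 in glomerular EC-like cells did not pass (-0.17 ± 0.10 at 6 weeks and -0.07 ± 0.10 at 12 weeks with the block, adjusted p = 0.589 and 0.913, edgeR). In mesangial-like cells of 12 weeks it was lower in DN, with 361, 235, 508 and 372 CPM in control and 200, 150.4, 401 and 121 CPM in DN mice. The groups overlapped through male 1 of the DN mice, and each DN mouse was below its pair. The difference was -0.70 ± 0.42 without the block (adjusted p = 0.626, edgeR) and -0.80 ± 0.20 with it (adjusted p = 0.0129), and -0.52 (adjusted p = 0.143) without male pair 2. The endothelial marker sum of mesangial-like cells averaged 752 CPM in control and 1087 CPM in DN mice of 12 weeks, and the dissociation list 1417 and 1949 CPM. Smooth muscle and renin markers there summed to 244 to 356 CPM in control and 747 to 1653 CPM in DN mice, without overlap. Mesangial markers averaged 15210 and 11922 CPM. The part of these in the Klf2 level was not tested. In podocyte-like cells of 6 weeks Klf2 was 18.1, 16.3, 7.83 and 3.93 CPM in control mice and 23.6, 50.5 and 17.9 CPM in DN mice (female 2, male 1, male 2). These were 1, 11, 6 and 3 UMIs in control and 15, 21 and 8 UMIs in DN mice. The difference was 1.72 ± 0.60 without the block (adjusted p = 0.553, edgeR). It passed with the block (1.70 ± 0.49, adjusted p = 0.0447, edgeR) and, unblocked, without the filter on low counts (1.69, adjusted p = 0.0303, edgeR). The blocked call was lost when a female 1 pair of 6 or 12 weeks was left out (adjusted p = 0.0563 and 0.0759). DN female 1 of 6 weeks had 8 cells and was not in the fit. Control female 1 of that age thus had no partner in the block, so its loss says nothing of a difference within that pair. The dissociation list averaged 2439 CPM in control and 4434 CPM in DN podocyte-like cells of 6 weeks.

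Klf4 in the unnamed endothelial cluster was 126, 449 and 253 CPM in control mice of 12 weeks (female 1, male 1, male 2) and 354, 560, 793 and 568.1 CPM in DN mice, which overlapped in 1 value. DN female 2 held 55 UMIs of Klf4 in 10 cells and DN male 2 held 42 in 11 cells. Control female 2 had 9 cells and was not in the fit, so DN female 2 had no partner in the block. The difference was 1.20 ± 0.34 without the block (adjusted p = 0.681, edgeR) and 1.05 ± 0.21 with it (adjusted p = 0.0359, and 0.0551 without male pair 2 of 6 weeks), where 0.299% of the genes of the cluster passed. With so few controls, no fit was run without a 12-week pair that holds a control, so the call was not checked in that way. The dissociation list in that cluster averaged 4391 CPM in control and 5320 CPM in DN mice. In glomerular EC-like cells the DN value of Klf4 was the greater in 7 of 8 pairs, at 12 weeks 305, 491, 445 and 404 CPM in control and 360, 584, 631 and 580 CPM in DN mice (0.38 ± 0.11 with the block, adjusted p = 0.0677, edgeR). The dissociation list there averaged 3472 CPM in control and 4832 CPM in DN mice of 12 weeks with no overlap, and its part in the Klf4 level was not tested. In IC-A-like cells Klf4 was low, at 9.14, 6.06, 14.3 and 16.03 CPM in control and 1.96, 7.40, 6.66 and 3.48 CPM in DN mice of 6 weeks. That passed with the block, as did 2.25% of the genes of the class (-1.03 ± 0.27, adjusted p = 0.0354, edgeR; without the block -0.98 ± 0.32, adjusted p = 0.705), fell to -0.49 (adjusted p = 0.609) without male pair 2, and was not called without female pair 1 or male pair 1 either (adjusted p = 0.0761 and 0.143).

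Plat passed in no class in the fits with and without the block. Without the filter on low counts it was called at 12 weeks in dLOH-like (2.22, adjusted p = 1.6e-05) and mitotic cells (1.70, adjusted p = 0.00302, edgeR). In glomerular EC-like cells the DN value was the greater of the pair in 7 of 8 pairs, with 5442, 2833, 4711 and 1886 CPM in control and 5720, 3233, 5334 and 2655 CPM in DN mice at 12 weeks. At 6 weeks, control mice ran from 2878 to 16636 CPM and DN mice from 3387 to 12828 CPM. The highest values were those of the female 1 libraries, of the shallow barcode list. In the large cluster these held 16271 CPM in control and 13133 CPM in DN mice. The other libraries of 6 weeks held 2474 to 5018 CPM in control and 3128 to 6457 CPM in DN mice there. In podocyte-like cells, Plat at 12 weeks was 2313, 2200, 1921 and 1764 CPM in control and 2171, 2059.5, 1520 and 1967 CPM in DN mice, which overlapped.

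**Figure D5:**
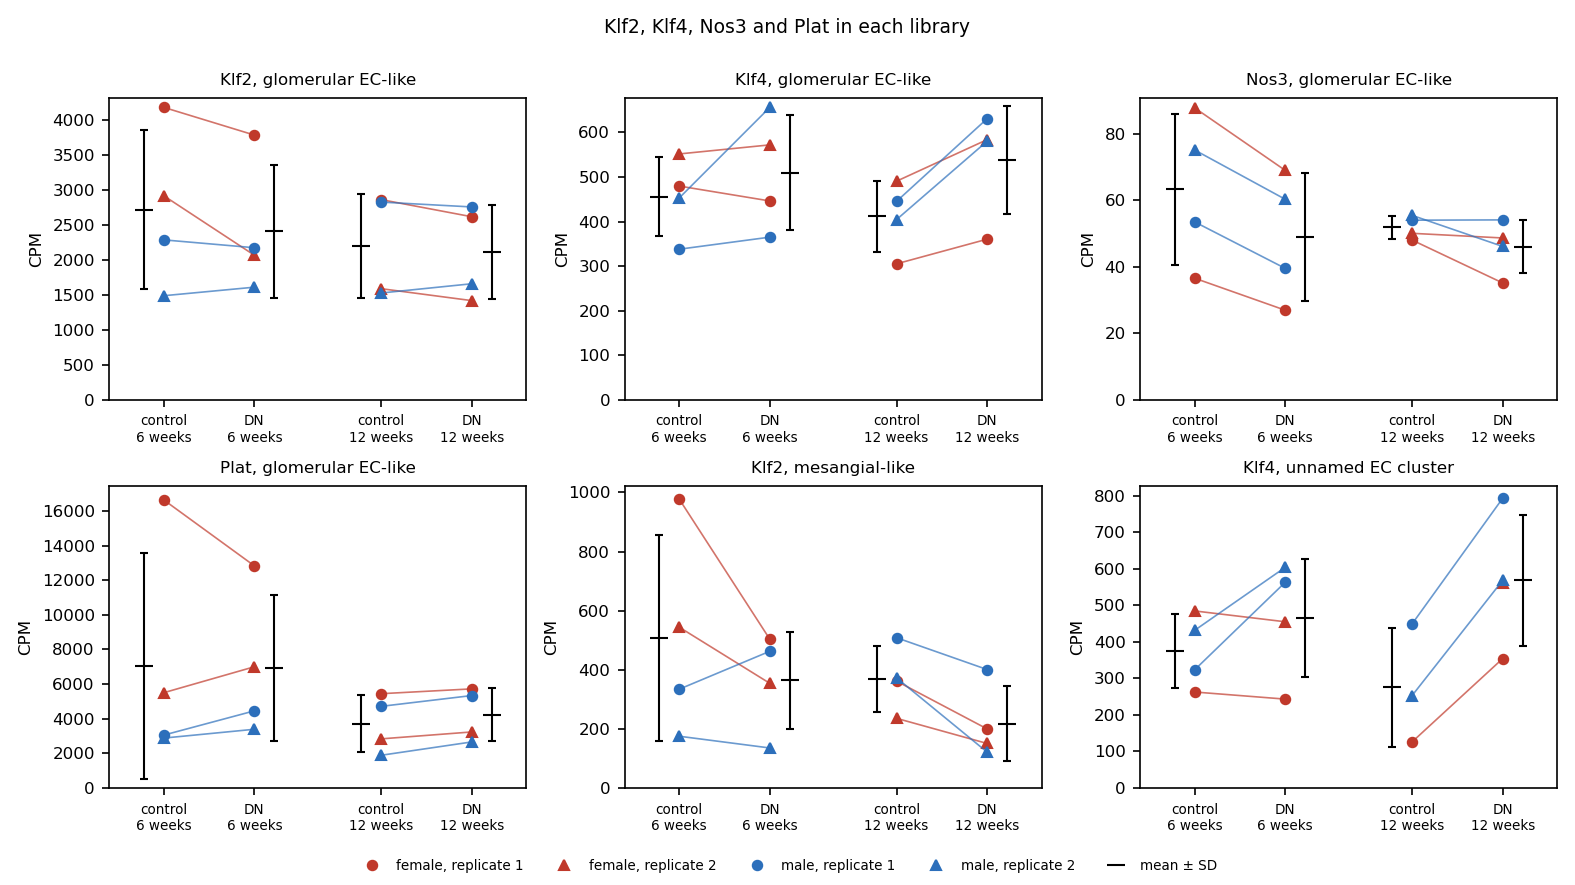
Klf2, Klf4, Nos3 and Plat in glomerular EC-like cells, Klf2 in mesangial-like cells and Klf4 in the unnamed endothelial cluster, in CPM by library (linear axes from 0, a scale for each panel). Points are mice (red female, blue male, circle replicate 1, triangle replicate 2), lines join mice of the same sex and number, and black bars give the mean ± SD. Pairs lie far apart for Plat (1886 to 16636 CPM over all libraries), with the highest values in the shallow female replicate 1 libraries of 6 weeks. Klf2 in mesangial-like cells falls in each pair of 12 weeks.

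Whether the DN effect differed between the ages was tested directly. It differed for 0 of 102 member-class pairs (2 had an unadjusted p under 0.05, 0 passed in DESeq2, and 0% of all gene-class pairs passed), and with the block for 0 of 109 (8 had an unadjusted p under 0.05, 0.0559% of all passed). For Ednrb in smooth muscle and renin-like cells, this difference of differences was 0.50 ± 0.20 with the block (adjusted p = 0.676, edgeR) and in PC-like cells -0.71 ± 0.20 (adjusted p = 0.231). Calls at 1 age only are therefore not shown to differ between the ages.

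Age was compared within each genotype, on the same libraries. Of the member-class pairs, 0 of 102 passed in control mice (11 had an unadjusted p under 0.05, 0 passed in DESeq2, and 0.00768% of all passed in edgeR) and 0 of 110 in DN mice (14 had an unadjusted p under 0.05, 0 passed in DESeq2, and 0.00186% of all passed in edgeR). In Calca-cluster arterial cells the log2 differences of Ednrb, 12 against 6 weeks, were -1.53 ± 0.37 in control (adjusted p = 0.555) and -1.41 ± 0.36 in DN mice (adjusted p = 0.858, edgeR). Without the filter on low counts both were called (-1.58, adjusted p = 0.000771, and -1.44, adjusted p = 0.00238, edgeR). For Edn1 the differences there were 0.60 ± 0.21 (adjusted p = 1) and 0.73 ± 0.20 (adjusted p = 0.858, edgeR), which did not pass.

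Between females and males 0 of 93 pairs passed in edgeR (10 at an unadjusted p under 0.05) and 4 in DESeq2, against 1.11% of all gene-class pairs in edgeR. The 4 were Plat in glomerular EC-like, mesangial-like and dLOH-like cells and Thbd in glomerular EC-like cells. Thbd in glomerular EC-like cells ran from 127.5 to 487 CPM in females (median 349) and 119 to 252 CPM in males (median 196), a log2 difference of 0.69 ± 0.20 (adjusted p = 0.0991, edgeR). Plat ran from 2833 to 16636 CPM in females (median 5609) and 1886 to 5334 CPM in males (median 3219; 1.01 ± 0.29, adjusted p = 0.0991, edgeR). The median of Edn1 was 57.0 CPM in females and 90.0 CPM in males (-0.63 ± 0.22, adjusted p = 0.141, edgeR). The shallow barcode list was used in females only, so it and sex are partly confounded. The highest Plat values in glomerular EC-like cells were those of shallow female libraries. With a term for the barcode list, chosen after seeing the data, Thbd (1.01, adjusted p = 0.00281) and Ednrb (0.92, adjusted p = 0.0106, edgeR) in glomerular EC-like cells were called higher in females. Plat was called in no class with that term, and in none in edgeR without it. Without that term Ednrb was at 0.44 ± 0.26 (adjusted p = 0.361, edgeR). The DN effect in females against males differed for 0 of 117 pairs (5 had an unadjusted p under 0.05, 0 passed in DESeq2, and 0.00818% of all passed in edgeR).

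The 9 genes were set beside the dissociation list in glomerular EC-like cells, whose sum ran from 2998 to 6878 CPM over the 16 libraries. Of 9 relations, 0 passed after Benjamini-Hochberg adjustment. Klf2 had Pearson r = 0.51 (permutation p = 0.0407, adjusted 0.304) and Spearman rho = 0.51 (permutation p = 0.0449, adjusted 0.161). Without the 2 libraries farthest from the median, r was 0.54, and within the 12 libraries of the larger barcode list it was 0.49 (permutation p = 0.0884). Plat had r = 0.45 (permutation p = 0.0847, adjusted 0.304) and rho = 0.53 (permutation p = 0.0367, adjusted 0.161), and r was 0.56 without those 2 libraries. Nos3 had r = -0.36 (permutation p = 0.165) and rho = -0.49 (permutation p = 0.0538), and r was -0.70 without them. For Edn1 r was 0.28 (permutation p = 0.301) and -0.23 without them, and for Klf4 0.17 (permutation p = 0.532) and -0.10, so neither kept its sign. For Ednrb r was -0.40 (permutation p = 0.122) and -0.31. The other 3 lay between -0.36 and -0.07, with a permutation p of at least 0.169.

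The other genes of these pathways were read from 5 lists, counted over classes. Of the endothelin list (Edn2, Edn3, Ece2, Mme, Kel), only Edn3 and Mme were tested in the classes, in 19 gene-class pairs at each age, and 0 passed without the block. With the block 1 of them passed, Mme (neprilysin, a peptidase that degrades endothelin) in aLOH-like cells (ascending limb) at 12 weeks (-0.59 ± 0.12, adjusted p = 0.0131, edgeR), beside 2.63% of all gene-class pairs.

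The nitric oxide list gave 0 of 175 pairs at 6 weeks and 3 of 169 at 12 weeks without the block, all higher in DN, where 0.296% of all gene-class pairs passed at 12 weeks. They were Arg2, the arginase that competes for arginine, in PC-like (2.14, adjusted p = 0.00426, edgeR) and CNT-like cells (connecting tubule; 3.35, adjusted p = 0.0253), and Ddah1, which degrades an inhibitor of nitric oxide synthase, in podocyte-like cells. Ddah1 there was 39.5, 49.8, 30.8 and 31.8 CPM in control and 225.5, 90.9, 152 and 126 CPM in DN mice of 12 weeks, all DN values above all controls (1.88 ± 0.30, adjusted p = 0.00665, edgeR). With the block 5 were higher and 1 lower at 6 weeks, among the higher Arg2 in PC-like (1.29) and Ddah1 in podocyte-like cells (1.04), and 5 were higher and 8 lower at 12 weeks, beside 1.16% and 2.63% of all gene-class pairs. The lower ones of 12 weeks included 4 in mesangial-like cells, where 11% of all genes passed, Cav1 (-0.998), Nostrin (-0.50) and the subunits of the nitric oxide receptor guanylate cyclase, Gucy1a1 (-0.43) and Gucy1b1 (-0.48). The median of the 13 list genes tested in mesangial-like cells was -0.24 with the block, beside 0.00 over all genes. At 12 weeks smooth muscle and renin markers in these cells averaged 296 CPM in control and 1064 CPM in DN mice. Mesangial markers averaged 15210 and 11922 CPM, and the dissociation list 1417 and 1949 CPM. Their part in these levels was not tested.

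The flow-sensing list gave 0 of 160 pairs at 6 weeks and 0 of 151 at 12 weeks without the block, and with it 1 higher and 1 lower at 6 weeks (Piezo1, 0.62, and Mef2c, -1.67, both in aLOH-like cells) and 4 higher and 2 lower at 12 weeks, beside 1.16% and 2.63% of all gene-class pairs, none in an endothelial class. Piezo1, a mechanosensitive channel, was at 12 weeks higher in CNT-like, PC-like, IC-B-like and aLOH-like cells (0.54 to 0.82), and Kdr was lower in smooth muscle and renin-like cells. In glomerular EC-like cells, 0 of the 12 tested passed in either fit and their median was 0.13 at 12 weeks with the block, beside 0.00 over all genes.

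The clotting and fibrinolysis list gave 0 of 105 pairs at 6 weeks and 3 of 100 at 12 weeks without the block, where 0.296% of all gene-class pairs passed, all higher: S100a10 (1.31 ± 0.13 with the block) and Serpine2 in mesangial-like cells and Anxa2 in smooth muscle and renin-like cells (1.31 ± 0.17 with the block). With the block 7 were higher and 2 lower at 6 weeks, and 18 higher and 1 lower at 12 weeks, beside 1.16% and 2.63% of all gene-class pairs. Among them was Serpine2, a serine protease inhibitor, in glomerular EC-like cells. It was 58.4, 45.0, 33.0 and 50.8 CPM in control and 219, 89.2, 164.5 and 94.9 CPM in DN mice of 12 weeks (1.89 ± 0.18 with the block, adjusted p = 5.0e-07; 1.65 without it, adjusted p = 0.0876, edgeR). All DN values lay above all controls, while Plat in the same cells did not pass. The dissociation list (2998 to 3716 CPM in control, 3824 to 6878 CPM in DN mice) did not overlap in these libraries either. The endothelial markers (4523 to 5916 and 5951 to 7885 CPM) did not overlap, and the part of both in the Serpine2 level was not tested.

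The dissociation list had 0 of 280 pairs called at 6 weeks and 3 of 266 higher at 12 weeks without the block (0.296% of all), and 40 higher and 7 lower with it (15 higher and 4 lower at 6 weeks), beside 2.63% (1.16% at 6 weeks) of all gene-class pairs. In podocyte-like cells of 12 weeks the 13 tested had a median of 1.13 with the block, beside -0.03 over all genes, and in glomerular EC-like cells the 16 tested had a median of 0.66.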

How the data were processed

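The authors aligned the reads to mm10 and counted UMIs per gene and barcode with Cell Ranger 3.0.2, and the deposited values are raw counts in 16 matrices of 31053 genes. From the 116439 barcodes, cells with 200 to 7000 genes and at most 50% mitochondrial UMIs were kept (94436), and 6591 doublet-like cells and 1000 cells of high mitochondrial share were removed. Cells were clustered (scanpy 1.11.5, leidenalg 0.10.2) without the 9 genes and named by markers. A total of 19451 kept cells stayed unnamed. Counts were summed per library and class (at least 10 cells) and tested with edgeR 4.0.16 (filterByExpr, TMM, quasi-likelihood) in R 4.3.3 over all genes of a class, with DESeq2 1.42.0 as an alternative. Permutation tests used scipy 1.17.1, with 100000 resamples for correlations. Mice of the same sex, age and number were compared as pairs. In 12 checks the deviations of same-numbered mice from their group means correlated with r of 0.26 to 0.76 (0.26 to 0.48 in males). A fit with the pair as a block was also run. The checks repeat the same pairings in glomerular EC-like, mesangial-like and PT-like cells. With 2 mice per group, numbering the mice the other way only turns the sign of r. Female replicate 1 was always of the other barcode list, so pair and batch cannot be told apart in females. The checks therefore do not establish a pairing. Nothing in the sources used here says that same-numbered mice share a litter or cage. The chi-square per degree of freedom between replicates was at least 151, so no library was a repeat of another. Values per library are given for every member called in the fits with or without the block. They are also given for some members of high level in endothelial and contractile classes. Klf2 in endothelial classes is given in the text as means and differences. List genes are named where called, at most 5 per list and class, and the 3 most alike genes per member were taken by r of class means. Alternatives were DESeq2 and its size factors, Scrublet doublets, clustering resolution 2.0, at least 30 cells per sum, no filter on low counts, a pseudocount of 10, subsets of libraries and leaving out each library. The members and lists were chosen with earlier results of these data known. The number of value columns not used was 0. Intervals and floors cover counting error only. The edgeR fit without the block was tested on simulated data for DN against control at 12 weeks, in glomerular EC-like, mesangial-like and Mgp-cluster arterial cells. The fit with the block was not tested in this way. Some items are not reported here.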

Additional observations from a re-analysis of the deposited data

Results flagged for a closer look

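Among 87 groups of 4 libraries, 5 had 1 library far from the other 3 by Dixon's test, where chance flags about 1 in 20 groups. Ednrb in glomerular EC-like cells was 1387 CPM in control female 2 of 6 weeks, against 366 to 528 CPM in the others. Ednrb in mesangial-like cells was 118 CPM in DN female 2 of 6 weeks, against 3.05 to 18.8 CPM, and Ednra in the same library and class was 99.9 CPM, against 44.4 to 53.2 CPM. Ednrb in smooth muscle and renin-like cells was 129 CPM in control female 1 of 12 weeks, against 203 to 216 CPM. Thbd in glomerular EC-like cells was 375 CPM in control female 2 of 12 weeks, against 167 to 192 CPM.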

How the results depend on the processing

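No called difference reversed under the alternatives run, while relations to the dissociation list changed sign: that of Edn1 from r = 0.28 to -0.23 without the 2 farthest libraries, that of Klf4 from 0.17 to -0.13 without DN male 1 of 12 weeks and that of Ednra from -0.07 to 0.06 (0.02 without control male 2 of 6 weeks). With the replicate block the number of member-class pairs called went from 0 to 6 at 6 weeks and from 1 to 8 at 12 weeks. The share of all gene-class pairs passing rose as well, from 0.0671% to 1.16% and from 0.296% to 2.63%. The member-class pairs past the low-count filter changed too, from 110 to 117 and from 102 to 109. For the other settings no share of all gene-class pairs is given, so their counts are not a result about the members. The terms for the barcode list, the blocked fit in the larger batch and the blocked fits without a pair were chosen after seeing the data. At 6 weeks the count was 1 with a barcode-list term, 4 without a filter on low counts, 1 with only libraries of that age, 5 with the block in the larger batch, 0 to 1 without 1 library, and 2 to 6 with the block without 1 pair. At 12 weeks it was 3 with a barcode-list term, 2 at clustering resolution 2.0, 7 without the filter, 2 in the larger batch, 0 of 82 with only libraries of that age (where Thbd in podocyte-like cells did not pass the filter), 7 with the block in the larger batch, 1 to 1 without 1 library, and 4 to 12 with the block without 1 pair (11 without male pair 1 and 12 without female pair 2, both of 6 weeks). Without the filter the DN effect differed between ages for 1 pair and between sexes for 2, and age differed for 5 in control and 8 in DN mice. For females against males the count was 4 with DESeq2, 2 with a barcode-list term, 9 without the filter and 0 to 2 without 1 library. The neighbouring classes that differed numbered 32 to 42 without 1 library. The causes were not tested. Leaving out 1 library was not run for the DN effect in females against males. The design had groups of 2 mice, and the 4 shallow libraries were all of females.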
